A study of Mus musculus with 12 samples.

Results

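Aminoacyl-tRNA synthetases attach amino acids to their tRNAs, and a group of stress genes is switched on by the transcription factor ATF4. These were examined together in trigeminal ganglia of adult mice after loss of the transcriptional regulator Prdm12. The 33 genes are 20 cytosolic tRNA synthetase genes and 13 genes of the ATF4 pathway, of 55416 gene identifiers in the files. The set was chosen by a measured value: the cysteinyl-tRNA synthetase gene Cars was higher in knockout ganglia in these same libraries, with the question whether its rise belonged to a stress response. The fold change of Cars between knockout and control is therefore given as a description, and no test of it is read as support. The other 32 genes were listed by family or pathway, with earlier results of these data known. All 33 passed the filter on low counts, with 27 reads (Trib3) as the lowest count of any of them in any library.

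The study measured polyadenylated RNA of trigeminal ganglia, which hold the cell bodies of sensory neurons of the face, in 12 samples from adult C57Bl6 mice 1 month after injection. The 6 inducible knockouts (iKO) had the genotype Rosa26Cre ERT2; Fl/Fl and received tamoxifen. Of the 6 controls, numbers 1 to 4 also received tamoxifen, with the genotypes Rosa26Cre ERT2; Fl/+ in control 1, +/+; Fl/+ in controls 2 and 3, and Rosa26Cre ERT2; +/+ in control 4. Controls 5 and 6 were Rosa26Cre ERT2; Fl/Fl mice that received corn oil. The iKO group held 3 females (1 to 3) and 3 males (4 to 6), and the controls 2 females (1 and 2) and 4 males (3 to 6). The Rosa26 locus is active in most cell types, so recombination is not limited to neurons. The labels do not say whether a library holds ganglia of 1 animal or of several, and p-values measure only the spread between these libraries.

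When amino acids run short, uncharged tRNAs activate the kinase GCN2 (Eif2ak4). Unfolded protein in the endoplasmic reticulum activates another kinase, PERK (Eif2ak3). Both phosphorylate the initiation factor eIF2, which lowers protein synthesis in general but raises translation of ATF4. ATF4 then binds C/EBP-ATF response elements and raises genes for amino acid synthesis, amino acid import and tRNA charging. In injured neurons this response is known to be activated through the kinase DLK, and ATF4 itself is controlled mainly at translation, so its mRNA level need not follow its activity.

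The response element is shown first, since it is the sequence the ATF4 targets among these genes are known for. RefSeq promoter windows of GRCm38.p6, from 250 bases before to 50 bases after the annotated start, were present for 25 of the 33 genes. There was no entry for Cars, Hars, Lars, Nars, Rars, Vars, Wars or Slc7a5. The motif TGATGNAA was searched on both strands (TTNCATCA on the other). It occurred in the windows of 5 of 13 synthetase genes and 4 of 12 ATF4 pathway genes, together 36% of the 25 genes. Of all 32851 windows of this length, 3.97% held it, which is a share of windows and not of genes. The ATF4 pathway genes were listed for that pathway, so these shares are a description and no test. The matches are shown in capitals, 5′ to 3′ on the strand of the gene, and the stretches end at the start site or at the limit of 30 flanking bases, or of 10 where the match lies after the start.
Asns (chr6:7693210-7693262, minus strand): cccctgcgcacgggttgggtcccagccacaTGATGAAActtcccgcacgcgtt
Chac1 (chr2:119351019-119351086, plus strand): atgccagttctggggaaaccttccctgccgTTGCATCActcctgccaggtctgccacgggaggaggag
Slc7a11 (chr3:50443623-50443709, minus strand): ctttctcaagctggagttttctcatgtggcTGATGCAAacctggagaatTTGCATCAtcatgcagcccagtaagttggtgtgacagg
Trib3 (chr2:152344029-152344056, minus strand): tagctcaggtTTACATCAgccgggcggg
Aars (chr8:111033700-111033767, plus strand): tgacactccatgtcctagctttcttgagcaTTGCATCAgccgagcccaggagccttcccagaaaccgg
Gars (chr6:55037941-55038000, plus strand): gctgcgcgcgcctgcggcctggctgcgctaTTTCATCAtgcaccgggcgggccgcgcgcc
Tars (chr15:11399659-11399703, minus strand): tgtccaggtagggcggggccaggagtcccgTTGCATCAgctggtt
Iars (chr13:49682127-49682154, plus strand): actgtcagtaTTGCATCAcctccagacg
Yars (chr4:129189896-129189923, plus strand): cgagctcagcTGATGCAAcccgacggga

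Aars held another match after its start, which is not printed, and Slc7a11 held 2 before its start. A match is a run of letters and not a measured binding site. The window of Mthfd2, described below, did not hold the motif.

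Read counts per gene were scaled with TMM factors to CPM, the count a library of 1000000 counts would hold. Total counts ran from 13207526 to 24178970 per library, and 16637 genes passed the filter. The targeted gene, Prdm12, averaged 106 ± 28.4 CPM in controls against 16.8 ± 1.97 CPM in iKO (SD, n = 6 each), and no iKO library reached the lowest control. The sensory neuron markers fit the labelled tissue: all 12 on the list were detected in every library, with Tubb3 at 2030 CPM and Prph at 1280 CPM in controls. Libraries differed in other tissue: summed skeletal muscle markers were 66.4 to 293 CPM in 11 libraries and 943 CPM in iKO 5. Summed central nervous system markers ran from 427 CPM in iKO 1 to 2510 CPM in control 6. With all 12 libraries and a term for sex in edgeR's quasi-likelihood test, 63 genes (0.379% of those tested) passed an adjusted p of 0.05, 29 higher (0.174%) and 34 lower.

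Cars charges cysteine onto its tRNA. It measured 25.8, 31.9, 27.6, 26.2, 27.3 and 28.4 CPM in controls 1 to 6 and 37.6, 37.8, 35.8, 41.7, 36.1 and 37 CPM in iKO 1 to 6. All iKO libraries lay above all controls, with control 2 the highest control and iKO 3 the lowest knockout. The means were 27.9 ± 2.17 and 37.7 ± 2.14 CPM (SD, n = 6 each), which is a log2 fold change of 0.43 ± 0.061 (SE, 95% interval 0.30 to 0.56), or 1.35-fold. In replicates 1 to 4, where every animal had received tamoxifen, the log2 fold change was 0.46 (0.28 to 0.63). In replicates 5 and 6, where all 4 libraries came from males of the iKO genotype that differed in the injection, it was 0.39 (0.15 to 0.63). There the loss of Prdm12 and the injection of tamoxifen cannot be told apart. These subsets are libraries of the comparison that led to the list, so they are no separate evidence. The difference between those effects was -0.06 (-0.36 to 0.23; adjusted p = 1 in edgeR). No gene passed for that difference in edgeR (5 in DESeq2), and none of the 33 had an unadjusted p under 0.05 there, where 3.41% of all genes did. In simulated counts the test of that difference recovered only 39% of 2-fold and 11% of 1.5-fold changes. The exons of Cars overlap the antisense pseudogene Gm15580 over 3.21% of their length in the GRCm38 annotation, and the library kit does not mark strand.

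**Figure D1:**
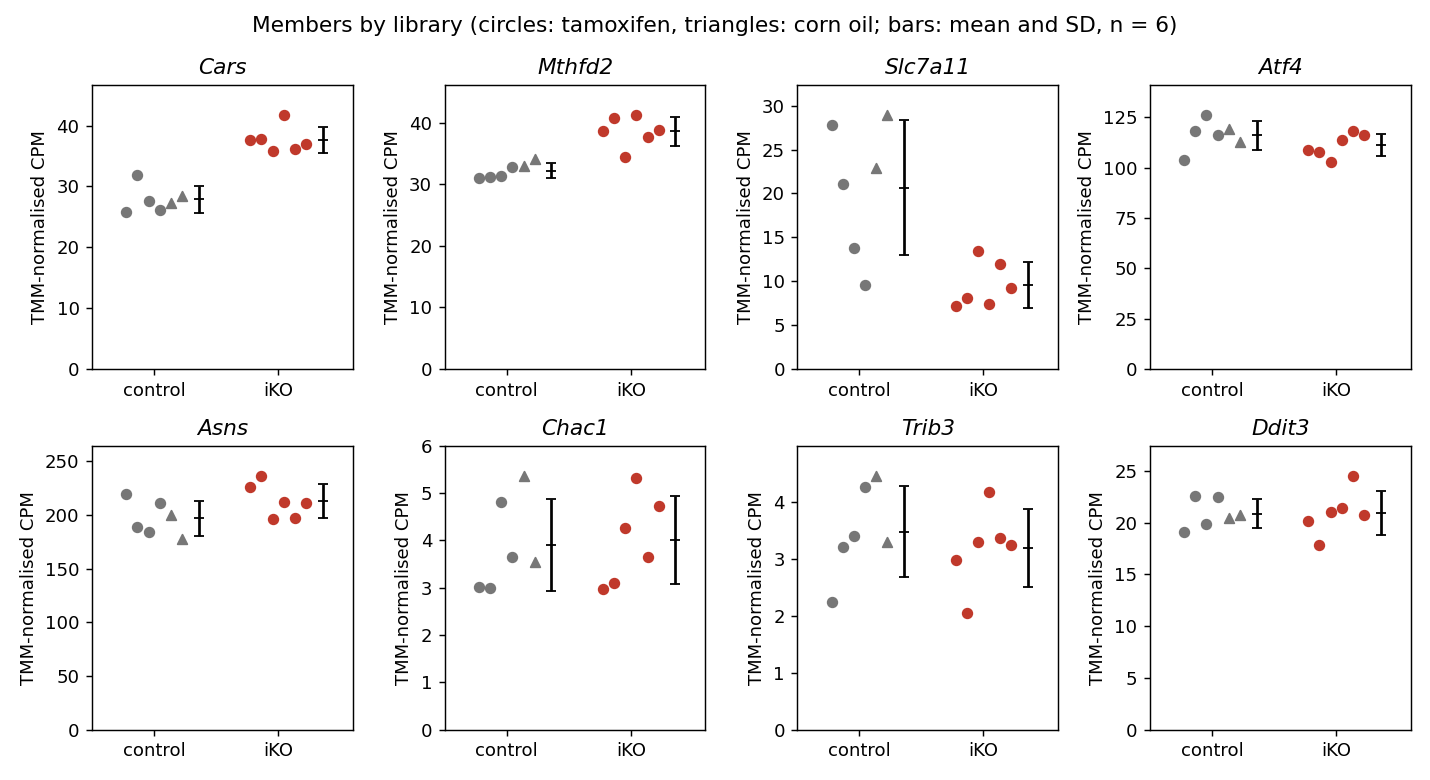
Levels of 8 of the 33 genes in each library, in TMM-normalised CPM on axes that start at 0, for controls (grey) and iKO (red). Circles are tamoxifen-injected and triangles corn oil-injected animals, and bars give the mean and SD of 6 libraries. Cars and Mthfd2 do not overlap between the groups, and the other 6 do.

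No other synthetase passed the threshold. The 19 synthetase genes beside Cars had log2 fold changes from -0.09 (Vars) to 0.11 (Lars), with a median of 0.04 against 0.001 over all genes tested, and 15 of them were above 0. The interval held 0 in 18 of the 19. The highest upper bound among them was 0.258 (Lars). At an unadjusted p under 0.05 only Kars was higher, where 4.9% of all genes were.

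Kars charges lysine. It ran from 93.9 to 104 CPM in controls and from 101 to 112 CPM in iKO, and all 6 iKO libraries lay above the control median though the groups overlapped. Its log2 fold change was 0.09 ± 0.042 (SE; adjusted p = 0.454 in edgeR). Tars, which charges threonine, ran from 43.7 to 50.4 CPM in controls (median 46.3) and from 45.7 to 53.3 CPM in iKO (median 50.9), with a log2 fold change of 0.11 ± 0.052 (adjusted p = 0.491 in edgeR). Sars, which charges serine, ran from 193 to 208 CPM in controls (median 199) and from 201 to 221 CPM in iKO (median 208), with a log2 fold change of 0.07 ± 0.036 (adjusted p = 0.544 in edgeR). In both, iKO libraries lay within the control range or little above it.

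Nars, which charges asparagine, had the highest CPM of the family. It ran from 368 to 421 CPM in controls (median 386) and from 376 to 417 CPM in iKO (median 403), with a log2 fold change of 0.03 (-0.06 to 0.13; adjusted p = 0.826 in edgeR). The bifunctional glutamyl-prolyl synthetase gene Eprs had one of 0.04 (-0.08 to 0.15), Aars one of 0.01 (-0.09 to 0.11) and Gars one of 0.04 (-0.07 to 0.15). Both subunits of the phenylalanyl enzyme had intervals that held 0, Farsa at 0.03 (-0.09 to 0.14) and Farsb at 0.09 (-0.03 to 0.21). Below 0 were Vars, at -0.09 (-0.26 to 0.09), Yars at -0.04 (-0.17 to 0.09), Wars at -0.03 (-0.17 to 0.10) and Mars at -0.03 (-0.15 to 0.09). The remaining genes Dars, Hars, Iars, Qars and Rars lay between 0.03 and 0.09. Reads of Aars, Farsb and Hars are less certain, since 15.12%, 9.47% and 7.97% of their exon bases overlap another gene (Exosc6, Sgpp2 and Hars2 among others).

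**Figure D2:**
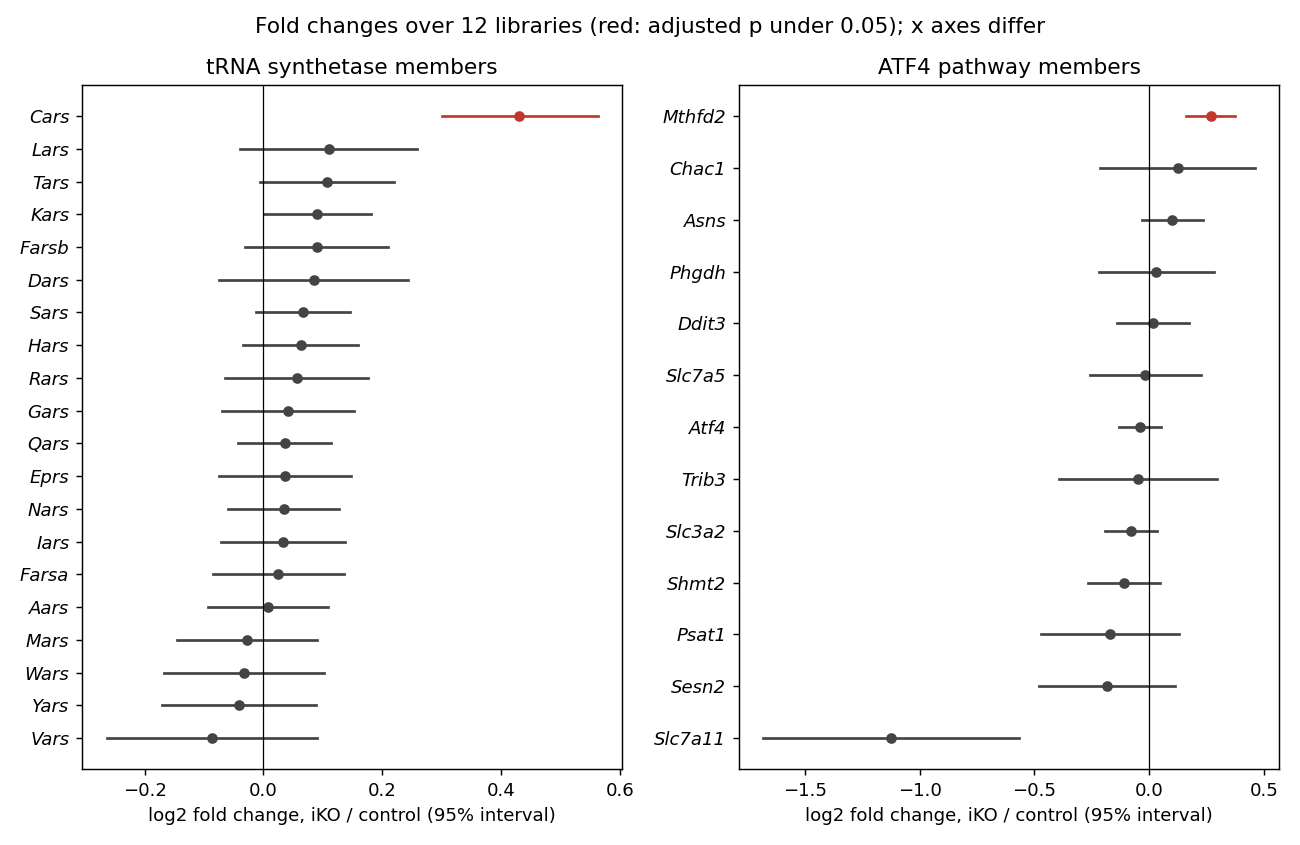
Log2 fold change of iKO over control with its 95% interval for each of the 20 synthetase genes (left) and 13 ATF4 pathway genes (right), from the edgeR fit over 12 libraries, with different x axes. Cars and Mthfd2 (red) passed an adjusted p of 0.05, and Slc7a11 has the lowest value, -1.13.

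Per kilobase of annotated exon (GRCm38 gene models, all transcripts joined), Cars had the lowest control level of the 20 synthetases. It measured 4.23 CPM per kilobase where the family's median was 18.6 and the highest level was 89.8 (Nars). In iKO it measured 5.72 CPM per kilobase, still below the 6.83 of Farsa in controls, the next lowest. Joined exons are longer than any single transcript where a gene has many, so these levels are approximate. The family varied little between libraries: the SD was 5.4% of the mean in controls (median over 20 genes, range 2.07% to 10.9%) and 5.81% in iKO. The control mean of Cars had an SD of 7.79%, against its 1.35-fold difference between the groups.

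Mthfd2, a mitochondrial enzyme of one-carbon folate metabolism and a known ATF4 target, was the only ATF4 pathway gene past the threshold in edgeR. It measured 31.1, 31.2, 31.3, 32.8, 32.9 and 34.1 CPM in controls 1 to 6 and 38.6, 40.7, 34.5, 41.2, 37.7 and 38.9 CPM in iKO 1 to 6. All iKO libraries lay above all controls, though iKO 3 did so by little. The means were 32.2 ± 1.23 and 38.6 ± 2.4 CPM (SD, n = 6 each). The log2 fold change was 0.27 ± 0.049 (SE, 95% interval 0.16 to 0.38; adjusted p = 0.0395 in edgeR), or 1.20-fold. It was 0.31 in replicates 1 to 4 (adjusted p = 0.142 in edgeR) and 0.19 in replicates 5 and 6 (adjusted p = 0.626 in edgeR), and the difference of -0.12 (-0.35 to 0.12) had an adjusted p of 1. The call over 12 libraries was marginal: with 1 library left out the adjusted p ran from 0.0282 to 0.132 and the log2 fold change from 0.25 to 0.29, and Mthfd2 was called only without control 6 or iKO 3. It was not called among tamoxifen-injected animals alone (adjusted p = 0.113 in edgeR).

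With Cars and Mthfd2, 2 of the 33 genes passed the threshold in edgeR, both higher, where 0.379% of all genes tested passed and 0.174% were higher. The groups did not overlap in the same 2 genes, a separation seen in 1.2% of all genes tested. Since Cars was listed for this difference, the count is a description. In replicates 1 to 4 alone none of the 33 passed in edgeR, where 0.114% of all genes did, and 4 had an unadjusted p under 0.05 (7.93% of all genes). These were Cars, Lars, Mthfd2 and Slc7a11, and DESeq2 called 3 of the 33 there, of 139 genes it called in all. In replicates 5 and 6 none passed either, where 0.00601% of all genes did. There 3 had an unadjusted p under 0.05 (7.87% of all genes) and DESeq2 called 1, of 69 genes it called in all. Among tamoxifen-injected animals alone Cars had the same log2 fold change, 0.43, but did not pass the threshold (adjusted p = 0.0538 in edgeR).

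The ATF4 transcript and its best known stress targets showed no call. Atf4 ran from 104 to 126 CPM in controls (median 117) and from 103 to 118 CPM in iKO (median 112), and 5 of 6 iKO libraries lay below the control median. Its log2 fold change was -0.04 (-0.13 to 0.05; adjusted p = 0.776 in edgeR). Asns, the asparagine synthetase gene, ran from 177 to 219 CPM in controls (median 195) and from 196 to 236 CPM in iKO (median 211). All 6 iKO libraries lay above the control median but only 2 above the highest control, and the log2 fold change was 0.10 (-0.03 to 0.23; adjusted p = 0.598 in edgeR).

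Chac1, which breaks down glutathione, ran from 3 to 5.36 CPM in controls (median 3.6) and from 2.98 to 5.32 CPM in iKO (median 3.95). Its log2 fold change was 0.12 (-0.21 to 0.46; adjusted p = 0.824 in edgeR). The interval includes the fold change of Cars, and 41 to 101 reads per library were counted. The pseudokinase gene Trib3 ran from 2.24 to 4.45 CPM in controls (median 3.35) and from 2.05 to 4.17 CPM in iKO (median 3.27), with a log2 fold change of -0.05 (-0.40 to 0.29; adjusted p = 0.939 in edgeR). Both groups spread alike over nearly the same range in Chac1 and Trib3.

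Ddit3 encodes CHOP, a transcription factor of the late stress response. It ran from 19.1 to 22.6 CPM in controls (median 20.6) and from 17.8 to 24.5 CPM in iKO (median 20.8), with a log2 fold change of 0.02 (-0.14 to 0.17; adjusted p = 0.956 in edgeR). Its exons overlap Mars and Gm4189 on the other strand and a second Ddit3 identifier of 105 bases on the same strand. Up to 10.86% of its exon bases are shared, so its reads are less certain. Sesn2, an inhibitor of mTORC1 signalling, averaged 6.49 ± 0.91 CPM in controls against 5.76 ± 1.06 CPM in iKO (SD, n = 6 each), which is a log2 fold change of -0.18 (-0.48 to 0.11).

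**Figure D3:**
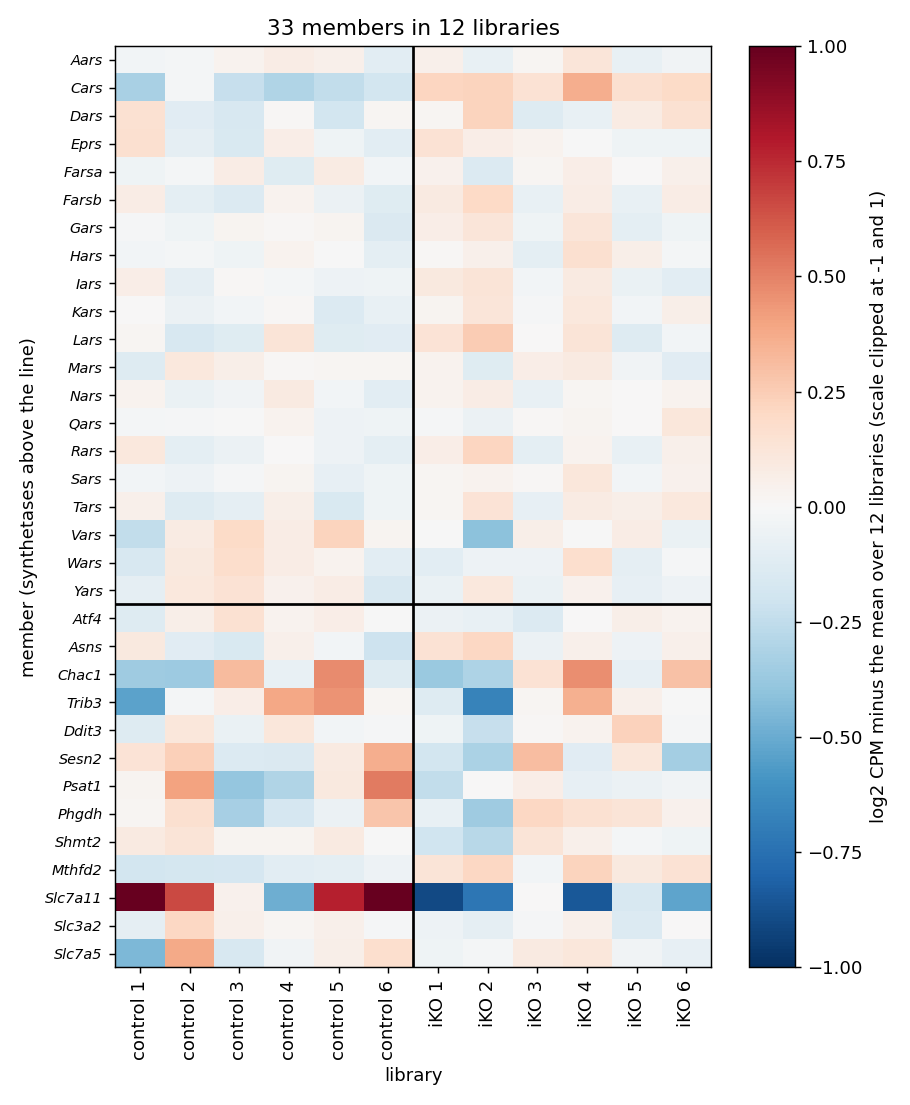
Log2 CPM of each of the 33 genes in each library minus its mean over the 12 libraries, clipped at -1 and 1, with controls left and iKO right of the line. The row of Cars is below its mean in the controls, with control 2 near 0, and above it in iKO, and the row of Slc7a11 has the widest spread.

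The other enzymes of serine and one-carbon synthesis on the list did not pass the threshold. Shmt2, the mitochondrial enzyme that makes glycine from serine, ran from 18.7 to 20.5 CPM in controls (median 19.5) and from 15.5 to 20.5 CPM in iKO (median 18.3), with a log2 fold change of -0.11 (-0.27 to 0.05; adjusted p = 0.629 in edgeR). The groups overlapped, though 4 of 6 iKO libraries (1, 2, 5 and 6) lay below every control. Phgdh, the first enzyme of serine synthesis, had a log2 fold change of 0.03 (-0.22 to 0.28) and Psat1, the next, one of -0.17 (-0.47 to 0.13). Psat1 spread more among controls (59.3 to 111 CPM) than among iKO (65.2 to 80.9 CPM). Its lowest controls, 3 and 4, also had the lowest control sums of the 7 satellite glia markers, 4220 and 4160 CPM, and its highest, control 6, had the highest, 7190 CPM. In iKO the sum ran from 4330 to 5550 CPM. Controls 3 and 4 also had the lowest, and control 6 the highest, control sums of Schwann cell, fibroblast and meninges, and central nervous system markers. The part of any of these cells in the level of Psat1 was not tested.

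Among the amino acid transporters, Slc7a11, the cystine importer, had the lowest fold change of the 33 genes. It measured 27.8, 21.1, 13.8, 9.54, 22.9 and 28.9 CPM in controls 1 to 6 and 7.16, 8.12, 13.4, 7.44, 12 and 9.26 CPM in iKO 1 to 6. The groups overlapped, since controls 3 and 4 were low, but no iKO library reached the control median of 22 CPM. The means were 20.7 ± 7.67 and 9.56 ± 2.57 CPM (SD, n = 6 each), with a log2 fold change of -1.13 ± 0.258 (SE, 95% interval -1.68 to -0.57). This did not pass the threshold in edgeR (adjusted p = 0.0905). It passed without control 4 (adjusted p = 0.0289 in edgeR), with no filter on low counts (adjusted p = 0.00763 in edgeR) and in DESeq2 (adjusted p = 0.00169), and the adjusted p over the libraries left out in turn ran up to 0.196. The log2 fold change was -1.11 in replicates 1 to 4 (adjusted p = 0.142 in edgeR) and -1.29 in replicates 5 and 6 (adjusted p = 0.41 in edgeR). Without the corn oil controls, which measured 22.9 and 28.9 CPM, it was -0.84 (adjusted p = 0.3 in edgeR).

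Markers of other tissue varied between libraries along with Slc7a11. The summed level of 8 fibroblast and meninges markers ran from 1940 to 3540 CPM in controls and from 1340 to 2510 CPM in iKO. None of the 8 passed the threshold in edgeR, 5 had an unadjusted p under 0.05 (10.9% of all genes tested) and DESeq2 called 4 lower, of 338 genes it called in all. All 8 had negative log2 fold changes (median -0.29) and none was at 0 in any library. Ptgds, abundant in meninges, measured 1350 ± 395 and 691 ± 134 CPM (SD, n = 6 each). The summed level of 8 central nervous system markers ran from 465 to 2510 CPM in controls and from 427 to 1050 CPM in iKO. Control 4 was the lowest control and control 6 the highest on both lists, as in Slc7a11 itself. The same held for the sums of satellite glia markers (4160 and 7190 CPM) and of macrophage and lymphocyte markers (67.7 and 155 CPM). Control 6 was also the highest control for Schwann cell and skeletal muscle markers, so the pattern is not particular to 1 tissue. None of the 8 central nervous system markers passed in edgeR, 2 had an unadjusted p under 0.05, DESeq2 called 1, and 7 were negative (median -0.71). Opalin was at 0 in 1 library. The part of these cells in the level of Slc7a11 was not tested, and in bulk tissue fewer cells of a type and less RNA per cell cannot be told apart. In the same controls, 4 and 6, Cars measured 26.2 and 28.4 CPM, the second lowest and the second highest control values, and the part of these cells in its level was not tested either.

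**Figure D4:**
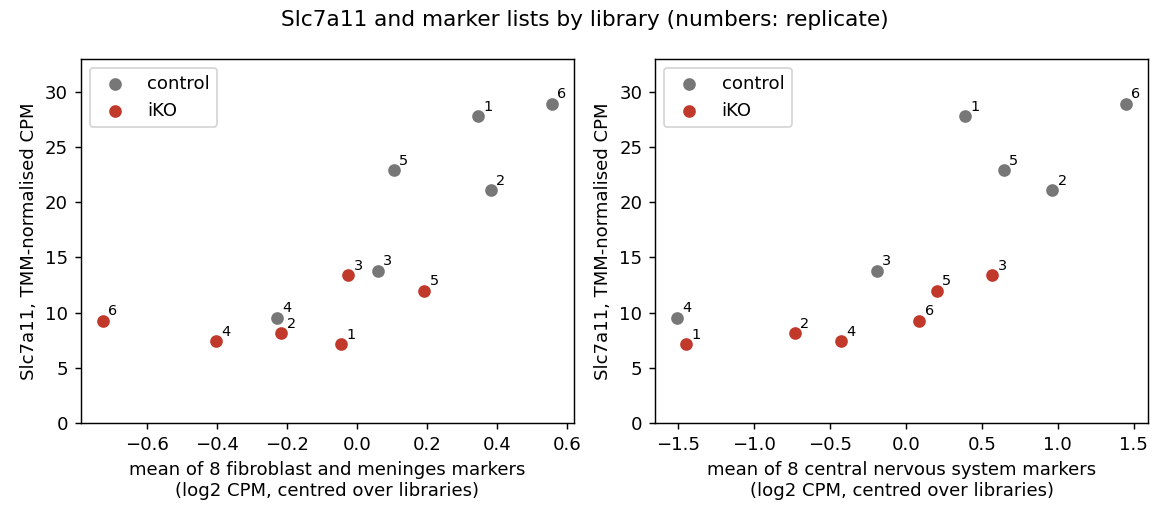
Slc7a11 in TMM-normalised CPM (y axes from 0) against the mean of 8 fibroblast and meninges markers (left) and of 8 central nervous system markers (right), both in log2 CPM centred over libraries, with 1 point a library numbered by replicate. Controls (grey) 4 and 6 are the lowest and highest controls on all axes, and iKO libraries (red) lie between 7.16 and 13.4 CPM.

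The heavy chain that carries Slc7a11 to the membrane, Slc3a2, ran from 103 to 127 CPM in controls (median 112) and from 99.8 to 114 CPM in iKO (median 108), with a log2 fold change of -0.08 (-0.19 to 0.04; adjusted p = 0.629 in edgeR). Slc7a5, the large neutral amino acid transporter that shares this heavy chain, had a log2 fold change of -0.02 (-0.26 to 0.23). It varied more in controls (31.7 to 56.4 CPM) than in iKO (40.8 to 46.9 CPM). Of the 13 ATF4 pathway genes, 5 had a log2 fold change above 0 and 8 below, with a median of -0.04, and the interval held 0 in 11.

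The fold changes of genes with and without the motif had close medians. The median log2 fold change was 0.03 over the 9 with a match shown above and 0.03 over the 16 without. Over all tested genes with a window it was -0.003 for 347 with a match and 0.001 for 11888 without.

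The wider pathway, from lists of related genes, had no call over 12 libraries in edgeR, where 0.379% of all genes tested were called. None of 17 mitochondrial tRNA synthetase genes passed. Against 10.9% of all genes tested, none of the 17 had an unadjusted p under 0.05. Their log2 fold changes ran from -0.09 to 0.545, with a median of 0.04. Lars2 averaged 137 ± 50.9 CPM in controls against 201 ± 108 CPM in iKO (SD, n = 6 each). It ran from 92.7 to 202 CPM in controls and from 74.2 to 358 CPM in iKO. Iars2 was at 0.08 (adjusted p = 0.522 in edgeR) and Cars2, the mitochondrial cysteinyl enzyme, at 0.13 (adjusted p = 0.53 in edgeR). Cars2 averaged 15.3 ± 0.735 CPM in controls against 16.6 ± 1.33 CPM in iKO (SD, n = 6 each). None of 6 scaffold genes of the multisynthetase complex and synthetase relatives passed (0 at an unadjusted p under 0.05, against the same share), with Tarsl2 at 0.09 and Aimp1 at 0.08.

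Of 26 other ATF4 targets, 23 passed the filter and none was called, with a median of 0.001 and 3 at an unadjusted p under 0.05, against 10.9% of all genes tested. The counts at this p in the lists that follow stand against the same share. Atf3, a stress and injury transcription factor, averaged 7.26 ± 0.886 CPM in controls against 9.11 ± 0.819 CPM in iKO (SD, n = 6 each), which is a log2 fold change of 0.31 (adjusted p = 0.238 in edgeR). Klhl24 had one of 0.12 (adjusted p = 0.417 in edgeR). The glycine transporter gene Slc6a9 had one of -0.98 (adjusted p = 0.43 in edgeR). Its reads are less certain, since genes on the other strand overlap up to 38.63% of its exon bases. Among controls Slc6a9 ran from 3.6 CPM in control 4 to 25.7 CPM in control 6, again the ends of several marker lists. In iKO it ran from 2.81 to 10 CPM. The secreted stress factors Gdf15 and Fgf21 had at most 6 and 4 reads in any library and were not tested.

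Of 14 genes for eIF2 kinases, eIF2 and eIF2B none was called (2 at an unadjusted p under 0.05). Eif2ak4, the kinase GCN2, had a log2 fold change of 0.16 (adjusted p = 0.449 in edgeR). Eif2s3x, an X-linked eIF2 subunit, had one of 0.26 (adjusted p = 0.267 in edgeR). None of 20 endoplasmic reticulum chaperone and sensor genes was called (2 at an unadjusted p under 0.05), with Edem1 at -0.15 (adjusted p = 0.436 in edgeR) and Calr at -0.10 (adjusted p = 0.456 in edgeR). Of 14 cysteine and glutathione genes, 13 passed the filter and none was called (3 at an unadjusted p under 0.05), with Hmox1 at -0.21 (adjusted p = 0.405 in edgeR) and Cbs at -0.96 (adjusted p = 0.417 in edgeR). Cbs, the enzyme that joins homocysteine to serine, ran from 1.98 CPM in control 4 to 12.6 CPM in control 6 among controls and from 1.86 to 4.78 CPM in iKO, where no library was above the control median. DESeq2 and limma-voom called none of the genes of these lists that they tested, whereas among the 33 genes DESeq2 called 3 (Cars, Mthfd2 and Slc7a11) and limma-voom 2 (Cars and Mthfd2). Over all genes DESeq2 called 338 and limma-voom 66.

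Cars lies at the edge of an imprinted domain, and its neighbours were examined for a change shared along the chromosome. The 3 tested genes on either side in the GRCm38 gene order were not called. Nap1l4, next to Cars, averaged 178 ± 6.41 CPM in controls against 189 ± 8.07 CPM in iKO (SD, n = 6 each), which is a log2 fold change of 0.09 ± 0.039 (SE; adjusted p = 0.401 in edgeR). On the other side Tnfrsf22 had a log2 fold change of 0.20 ± 0.121 (adjusted p = 0.602 in edgeR) from 2.84 CPM. Slc22a18 (0.08), Phlda2 (0.16), Tnfrsf23 (-0.19) and Osbpl5 (0.16) had adjusted p-values from 0.526 to 0.896 in edgeR. In a list of 12 genes of the domain, 11 were tested and none called (2 at an unadjusted p under 0.05). Cdkn1c, a growth inhibitor, measured 11 ± 2.65 and 7.8 ± 1.08 CPM (SD, n = 6 each), which is a log2 fold change of -0.50 (adjusted p = 0.199 in edgeR). Reads of Cdkn1c are less certain, since Gm44732 on the other strand overlaps 30.65% of its exon bases.

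The comparison of 7 males with 5 females, with group as a covariate, played no part in listing the genes. None of the 33 was called in edgeR, where 0.108% of all genes were, or in DESeq2, which called 50 genes. Of the 33, 3 had an unadjusted p under 0.05 in edgeR (10.2% of all genes), all higher in males (5.23% of all genes were so). They were Chac1, Trib3 and Atf4. Chac1 was 2.98 to 3.11 CPM in 4 of the 5 females, with iKO 3 at 4.27 CPM, and 3.54 to 5.36 CPM in males. Its log2 fold change was 0.45 ± 0.159 (SE; adjusted p = 0.443 in edgeR). Trib3 was 2.05 to 3.3 CPM in females and 3.24 to 4.45 CPM in males, a log2 fold change of 0.42 ± 0.163 (adjusted p = 0.456 in edgeR). Atf4 was 103 to 118 CPM in females and 113 to 126 CPM in males, a log2 fold change of 0.11 ± 0.044 (adjusted p = 0.469 in edgeR). In each of the 3 the sexes overlapped by 1 or more libraries.

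**Figure D5:**
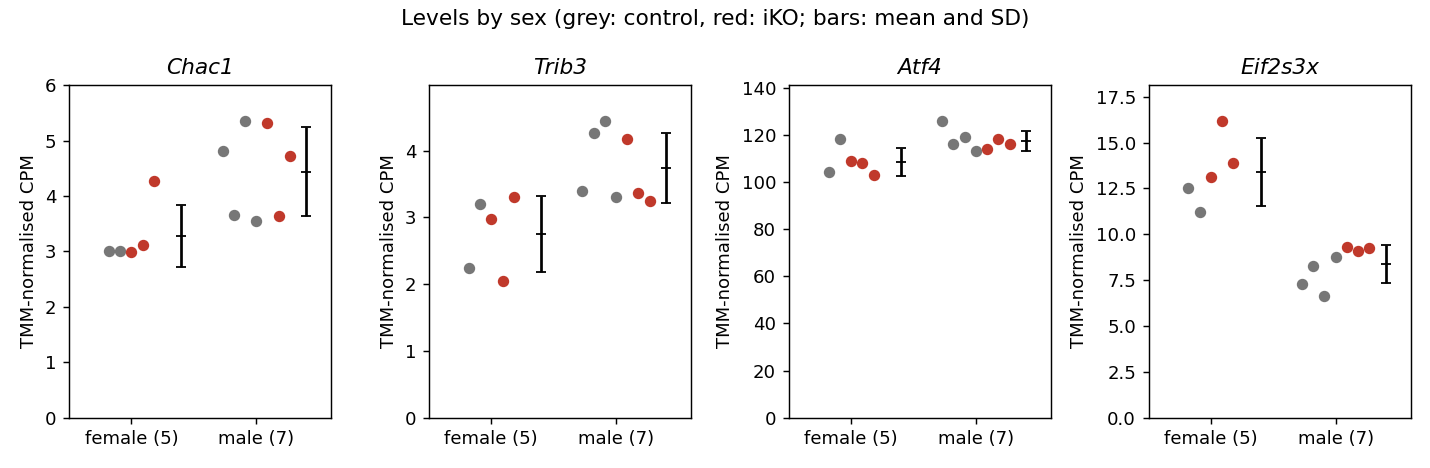
Chac1, Trib3, Atf4 and the X-linked Eif2s3x in each library by sex, in TMM-normalised CPM on axes that start at 0, with controls grey, iKO red, and bars for the mean and SD of 5 females and 7 males. Only in Eif2s3x, at 11.2 to 16.2 CPM in females and 6.62 to 9.3 CPM in males, do the sexes not overlap.

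Of the related genes, Eif2s3x was lower in males, with a log2 fold change of -0.63 ± 0.087 (SE; adjusted p = 0.0123 in edgeR). It is known to escape X inactivation. For Cars the log2 fold change of males over females was -0.01 (-0.14 to 0.12; adjusted p = 0.965 in edgeR).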

How the data were processed

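PolyA RNA of 12 trigeminal ganglion samples was sequenced from libraries that do not mark strand, per the labels' protocols. The authors deposited 1 table of raw read counts per sample. Per the submitters' processing notes they used bcl2fastq 2.20.0.422, STAR 2.7.8a, featureCounts 2.0.1 and GRCm39. No source used here gives the annotation release or the counting options.

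Genes were filtered with filterByExpr (16637 of 55416 kept) and scaled with TMM (factors 0.969 to 1.02). They were tested with edgeR 4.0.16's quasi-likelihood test (R 4.3.3), with Benjamini-Hochberg adjustment over all genes kept and a threshold of 0.05. The model held sex and group, or sex and group within replicate set (1 to 4, or 5 and 6). The standard error was the log2 fold change divided by the square root of F. Depth of 13207526 to 24178970 counts puts 3 counts at 0.124 to 0.227 CPM, a floor for counting error only. Same-group libraries differed beyond sampling noise (chi-square per degree of freedom 7.16 to 26.2 over 30 pairs).

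Symbols came from GRCm38 tables, which named 52083 identifiers and left 3333 (0.274% of counts) unnamed. Exon lengths and neighbours came from GENCODE vM21 gene models, promoter windows from RefSeq. In counts simulated for 16637 genes the fit over 12 libraries recovered 85% of 2-fold and 69% of 1.5-fold changes with 3 false calls. For replicates 5 and 6 it recovered 60% and 29%.

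The members and lists were chosen with earlier results of these data known. All members were counted. Values by library were given for Cars, Atf4, Asns, Chac1, Trib3, Ddit3, other members past the threshold, the 3 synthetases and 3 ATF4 pathway genes with the smallest p not yet named, and the synthetase with the highest CPM. From other lists the 2 genes with the smallest p were named, and a few more for their level or spread. Beside Cars the 3 tested genes on either side were named. DESeq2 1.42.0, limma-voom (limma 3.58.1), other filters and scaling, libraries left out and a replicate block were tried as alternatives.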

Additional observations from a re-analysis of the deposited data

Results flagged for a closer look

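In 4 of the 66 sets of 6 values examined (33 genes in 2 groups), 1 library lay far from the other 5 of its group by Dixon's criterion, which chance alone reaches in about 1 set in 20. In iKO 4 Cars measured 41.7 CPM, where the next highest iKO library had 37.8 CPM. The tryptophanyl synthetase gene Wars was also highest in iKO 4, at 129 CPM against 114 CPM in the next. In iKO 2 the valyl synthetase gene Vars measured 42.7 CPM and the next lowest iKO library 54.4 CPM. The phenylalanyl synthetase subunit gene Farsa was lowest in the same library, at 28.3 CPM against 31.3 CPM. Without iKO 4 the log2 fold change of Cars was 0.39.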

How the results depend on the processing

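No member changed direction where it was called. Cars kept its call with any 1 of the 12 libraries left out (log2 fold change 0.389 to 0.492, edgeR adjusted p 0.00471 to 0.0329), and Mthfd2 kept it only without control 6 or iKO 3. Since Cars was listed for this difference in these libraries, its calls here are a description and no support. With DESeq2 the genes called were 338 (all libraries, edgeR 63), 139 (replicates 1 to 4, edgeR 19, with 3 of the 33 genes), 69 (replicates 5 and 6, edgeR 1, with 1 of the 33), 5 (difference of the sets, edgeR 0) and 50 (sex, edgeR 18). With no filter on low counts they were 138, 621 (3 of the 33), 1014 (3 of the 33), 578 and 33. DESeq2's size factors, or at least 1 CPM in 6 libraries, gave 2 in replicates 5 and 6. Tamoxifen-injected animals alone gave 28 genes and 0 of the 33. Without control 6 and iKO 5 together, an alternative chosen after seeing the data, 1 of the 33 remained, Cars.

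The replicate block with sex gave 15 genes and 0 of the 33 over all libraries. Fitted alone, replicates 1 to 4 gave 12 genes and 8 with the replicate block, and replicates 5 and 6 gave 0 with and without the replicate block. With this block over all libraries the log2 fold change was 0.448 for Cars (adjusted p = 0.1 in edgeR) and 0.281 for Mthfd2 (adjusted p = 0.154 in edgeR). Correlations of same-numbered libraries ran from -0.396 to 0.35. They cannot settle whether the numbers pair animals, which the labels do not say.

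With 1 library left out, calls over all libraries ran from 23 (without control 2) to 88 genes and from 1 to 2 of the 33. They were 27, 33 and 29 without control 1, 3 or 5, and 24, 32 and 35 without iKO 1, 5 or 6. Replicates 1 to 4 gave 2 to 18 genes and 0 to 1 of the 33, which was Cars without control 2. Replicates 5 and 6 gave 1 to 26 genes and the difference 0 to 15, both highest without iKO 6, and sex gave 11 to 15. These gave 0 of the 33. Intervals were wide for some genes at a few CPM: the 95% intervals reach 0.46 for Chac1 and from -0.40 to 0.29 for Trib3 on the log2 scale. The part of depth in their width was not tested.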
